A study of Mus musculus with 8 samples.

Results

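The 10 genes described here encode Toll-like receptors and the proteins that work directly with them: the receptors Tlr1, Tlr2, Tlr3, Tlr4, Tlr7 and Tlr9, the co-receptors Cd14 and Ly96, the adaptor Myd88 and the inhibitor Irak3. They were chosen by name, with earlier results of these data known, through array probes whose accession is a RefSeq transcript of 1 of these genes. They are 10 of the 26148 genes tested. All 11 of their probes (Tlr7 has 2) were above background in both dye channels on all 8 arrays, and none was saturated, so every member entered every comparison.

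Macrophages taken from the mouse peritoneum were kept in low-glucose medium with 20% serum and given LECT2 (leukocyte cell-derived chemotaxin 2, which liver cells secrete into the blood) or none. RNA of LECT2-treated cells was labelled with Cy3 and RNA of control cells with Cy5, and both were hybridised to the same 2-colour Agilent array. The groups were LECT2 at 0.5 µg/ml (low dose) for 48 h, LECT2 at 5 µg/ml (high dose) for 48 h, the low dose for 3.5 h and the high dose for 3.5 h, each set against cells of the same time with 0 µg/ml. There were 2 arrays a group, 1 from each of 2 independent experiments that used different mice. The early time is 3 h in the channel labels and 3.5 h in the titles, which are followed here, and the labels state no strain, sex or age. No dyes were swapped, so LECT2 and a dye bias of a probe that is the same on all arrays cannot be told apart, although such a bias cancels in the differences between doses and between times.

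Toll-like receptors recognise conserved parts of microbes. TLR2, paired with TLR1 or TLR6, and TLR4, with its partner MD-2 (encoded by Ly96), sit at the cell surface and bind bacterial lipoproteins and lipopolysaccharide, and CD14 hands these lipids to them. TLR3, TLR7 and TLR9 sit in endosomes and bind double-stranded RNA, single-stranded RNA and unmethylated CpG DNA. All of these receptors except TLR3 signal through the adaptor MyD88, which recruits kinases of the IRAK family and leads to activation of NF-kB, and IRAK-M (encoded by Irak3) is a family member that restrains this step in macrophages.

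Values are log2 ratios of LECT2 over control, taken from the authors' deposited value table with the sign reversed, so that a value above 0 means more RNA with LECT2. An effect is the mean of the 2 arrays of a group, given with its standard error from a limma fit over all 8 arrays, and a gene is said to have risen or fallen where its Benjamini-Hochberg adjusted p over all 26148 genes was under 0.05. The deposited columns and the scanner files disagree about which array is which. In 7 of the 8 columns the best-matching scanner file is recorded under another sample. For replicate 1 of the low dose at 3.5 h the column and its own file correlate at r = 0.807 only, against r between 0.990 and 1.00 for the best match of the other columns. The results below follow the columns. When the scanner files were used as recorded, 0 of the 11 calls made on the members were kept (limma; values in the plot of alternatives). With files matched to columns by their values, all 3.5 h arrays were on slide 1 and all 48 h arrays on slide 2, so time and slide cannot be told apart.

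Across all genes the 2 arrays of a group correlated at 0.365 (low dose, 48 h), 0.631 (high dose, 48 h), 0.404 (low dose, 3.5 h) and 0.718 (high dose, 3.5 h), as Pearson's r. The share of probe spots above background ran from 56.4% to 71.7% for LECT2 and from 63.6% to 82.3% for the control. The number of arrays limits the precision, with a median standard error of 0.28 for an effect and 0.40 for a difference. RNA was taken from whole cultures, in which fewer cells of a type and less RNA per cell cannot be told apart. Macrophage markers were well represented: all 8 tested genes of that list were above background on every array (Cd68 of the 9 listed was not matched), the log2 of their summed signal was 17.4 to 18.3 in the LECT2 channel and 17.99 to 18.8 in the control channel, and their median effect lay between -0.27 and -0.08 in the 4 groups.

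The promoters of 2 members that rose are shown first, because they carry matches to motifs of factors downstream of these receptors. They are the 250 bases before the transcription start in RefSeq, build GRCm38.p6, read 5′ to 3′ on the gene's strand. Tlr2 lies at chr3:83841609-83841858 on the minus strand and Myd88 at chr9:119340019-119340268 on the minus strand. Capitals mark overlapping matches to the NF-kB consensus in Tlr2 and a match to the core of the interferon response element in Myd88, both found by searching both strands.
Tlr2: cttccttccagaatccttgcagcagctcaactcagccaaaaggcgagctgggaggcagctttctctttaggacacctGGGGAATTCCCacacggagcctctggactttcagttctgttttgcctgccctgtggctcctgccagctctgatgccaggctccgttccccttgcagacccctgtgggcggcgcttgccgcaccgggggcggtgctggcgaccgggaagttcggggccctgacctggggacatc
Myd88: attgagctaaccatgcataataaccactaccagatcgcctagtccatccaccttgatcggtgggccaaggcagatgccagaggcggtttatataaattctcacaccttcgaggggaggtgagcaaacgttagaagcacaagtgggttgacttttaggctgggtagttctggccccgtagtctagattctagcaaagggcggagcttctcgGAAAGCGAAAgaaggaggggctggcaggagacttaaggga
The 2 matches in Tlr2 start 173 and 172 bases before the start site and overlap, and the match in Myd88 starts 40 bases before it. Of 32851 promoter windows of 27025 genes, 3.9% held an NF-kB consensus match and 2.98% held the interferon response core. RefSeq promoters of 6 members (Tlr1, Tlr2, Tlr3, Tlr9, Myd88 and Irak3) were searched, in 8 windows, and no promoter of the other members was searched. Tlr3 held 1 NF-kB match, starting 211 bases before its start. Tlr9 held 1 match to TGANTCA (the AP-1 motif, in 6.75% of windows), and Tlr9 and Tlr1 each held 1 match to GAGGAA (the core bound by PU.1, in 23.3% of windows). Both Irak3 windows held no match to these 4 motifs. A match is a description of the letters in the window and not evidence of binding.

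The comparison of each LECT2 group with its control asked whether LECT2 changed the RNA of the receptor apparatus, and at which dose and time. At 3.5 h the low dose was followed by a rise of 4 of the 10 members (Tlr1, Tlr2, Myd88 and Irak3) and a fall of 0, where 2.75% of all genes rose and 2.15% fell. The high dose at 3.5 h was followed by a rise of 4 members (Tlr2, Cd14, Myd88 and Irak3) and a fall of 0, where 10.2% of all genes rose and 11.7% fell. At 48 h no member passed the test at the low dose, where 0.172% of all genes did. The count at an unadjusted p under 0.05 there was also 0 members, beside 2639 of the 26148 genes tested (limma). At 48 h the high dose was followed by a rise of 2 members (Tlr2 and Tlr4) and a fall of 0, where 4.31% of all genes rose and 6.91% fell. The shares over all genes rest on few arrays too. The 2933 genes called for the high dose at 48 h became 14 without replicate 1 and 57 without replicate 2 of that group, and 1839 without either low dose array at 48 h. For the high dose at 3.5 h 5724 became 901 without replicate 1 and 2442 without replicate 2. For the low dose at 3.5 h 1279 became 117 without replicate 1, 1372 without replicate 2 and 716 without either low dose array at 48 h. The 45 genes called for the low dose at 48 h became 0 to 53. The median effect over the 10 members was 0.32 and 0.72 with the low and the high dose at 48 h and 0.70 and 0.87 with the low and the high dose at 3.5 h, beside medians over all genes between -0.03 and 0.02.

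**Figure D1:**
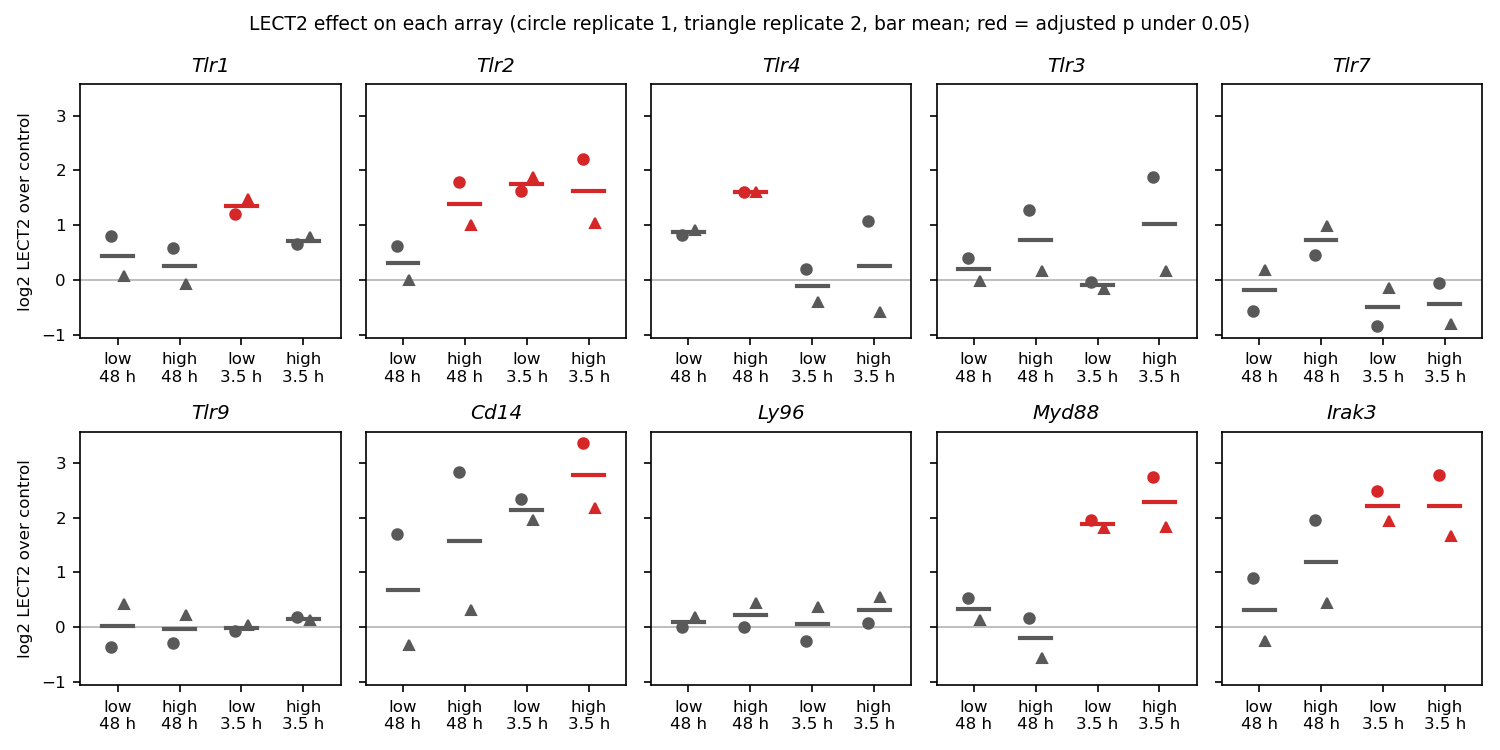
LECT2 effect on each array for the 10 members, as the log2 ratio of LECT2 over control on the vertical axis and the dose and time group on the horizontal axis. Circles are replicate 1, triangles replicate 2, bars the mean of the 2, and red marks an adjusted p under 0.05. Myd88 and Irak3 lie at 1.66 or above on all 3.5 h arrays, Tlr4 lies at 1.60 on both high dose arrays at 48 h, and all points of Tlr9 and Ly96 lie between -0.37 and 0.55.

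Tlr2, the shared subunit of the lipoprotein receptors, was the only member that rose in 3 groups. At 48 h its log2 ratio was 0.62 and 0.00 at the low dose and 1.79 and 1.00 at the high dose. At 3.5 h it was 1.62 and 1.89 at the low dose and 2.20 and 1.05 at the high dose. All 6 of these values outside the low dose at 48 h are at 1.00 or above, and replicate 2 of the low dose at 48 h is the lowest of all 8. The effect was 1.39 ± 0.34 (SE, n = 2) for the high dose at 48 h (2.63-fold, adjusted p = 0.0413), 1.75 ± 0.34 for the low dose at 3.5 h (3.37-fold, adjusted p = 0.0328) and 1.63 ± 0.34 for the high dose at 3.5 h (3.09-fold, adjusted p = 0.0154). Its probe is printed in 10 spots on each array, whose ratios within an array had an SD of 0.0156 to 0.0376, while the 2 arrays of a group differed by 0.266 to 1.16.

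The calls on Tlr2 depended on single arrays. At the high dose and 3.5 h the effect was 1.05 (adjusted p = 0.181) without replicate 1 of that group. At the low dose and 3.5 h it was 1.89 (adjusted p = 0.157) without replicate 1 and 1.62 (adjusted p = 0.127) without replicate 2 of that group, and its adjusted p was 0.0551 without either low dose array at 48 h. At the high dose and 48 h it was 1.00 (adjusted p = 0.271) without replicate 1 and 1.79 (adjusted p = 0.133) without replicate 2 of that group, and its adjusted p was 0.0612 without either low dose array at 48 h. With the matched scanner files centred on each array's median in place of the value table, the Tlr2 effect was 0.66 for the high dose at 48 h, 1.13 for the low dose at 3.5 h and 0.80 for the high dose at 3.5 h, with adjusted p of 0.135, 0.0505 and 0.0677.

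Tlr1, the partner of TLR2 for triacylated lipoproteins, rose at the low dose and 3.5 h. At 48 h its log2 ratio was 0.80 and 0.07 at the low dose and 0.59 and -0.08 at the high dose. The values at 3.5 h were 1.21 and 1.48 at the low dose and 0.65 and 0.78 at the high dose. Both low dose arrays at 3.5 h stand above all 6 others. The effect there was 1.35 ± 0.27 (2.54-fold, adjusted p = 0.0353), and at the high dose and 3.5 h it was 0.71 ± 0.27 (adjusted p = 0.0961). The call at the low dose was lost without replicate 1 (1.48, adjusted p = 0.166) or replicate 2 (1.21, adjusted p = 0.156) of that group, without either high dose array at 3.5 h (adjusted p = 0.0617) and without either low dose array at 48 h (adjusted p = 0.0509). Of 20 alternatives for this value, 9 kept the call.

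Tlr4, the lipopolysaccharide receptor, rose at the high dose and 48 h. Its log2 ratio at 48 h was 0.82 and 0.91 at the low dose and 1.60 and 1.60 at the high dose. After 3.5 h it was 0.20 and -0.41 at the low dose and 1.08 and -0.58 at the high dose. All 4 arrays at 48 h are above 0.8, the arrays at 3.5 h fall on both sides of 0, and 3 of the 4 lie below every 48 h array. The effect was 1.60 ± 0.37 at the high dose and 48 h (3.03-fold, adjusted p = 0.0366), and 0.87 ± 0.37 at the low dose and 48 h (adjusted p = 0.497). The call was lost without replicate 1 (adjusted p = 0.183) or replicate 2 (adjusted p = 0.213) of the high dose at 48 h and without either low dose array at 48 h (adjusted p = 0.0622), and the effect from matched scanner files centred on the array median was 0.89 (adjusted p = 0.0539).

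Cd14, which delivers lipopolysaccharide and lipoproteins to TLR4 and TLR2, had the highest effect of the 10 members at 3.5 h with the high dose. Its log2 ratio at 48 h was 1.69 and -0.32 at the low dose and 2.83 and 0.31 at the high dose. The 3.5 h values were 2.33 and 1.96 at the low dose and 3.36 and 2.19 at the high dose. The 4 arrays at 3.5 h are all at 1.96 or above, while at 48 h replicate 1 is far above replicate 2 at both doses. The effect was 2.77 ± 0.65 at the high dose and 3.5 h (6.84-fold, adjusted p = 0.0232). It was 2.15 ± 0.65 at the low dose and 3.5 h (adjusted p = 0.108, and 0.0245 with a replicate block) and 1.57 ± 0.65 at the high dose and 48 h (adjusted p = 0.158, and 0.0391 with a replicate block). The call at the high dose and 3.5 h was lost without replicate 1 (2.19, adjusted p = 0.240) and without replicate 2 (3.36, adjusted p = 0.0842) of that group.

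Ly96, whose product MD-2 binds the lipid part of lipopolysaccharide next to TLR4, did not pass the test in any group. Its log2 ratio at 48 h was -0.01 and 0.18 at the low dose and 0.00 and 0.44 at the high dose. The ratio at 3.5 h was -0.26 and 0.36 at the low dose and 0.08 and 0.55 at the high dose. Its 95% intervals ran from -0.37 to 0.81 for the high dose at 48 h and from -0.27 to 0.91 for the high dose at 3.5 h.

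**Figure D2:**
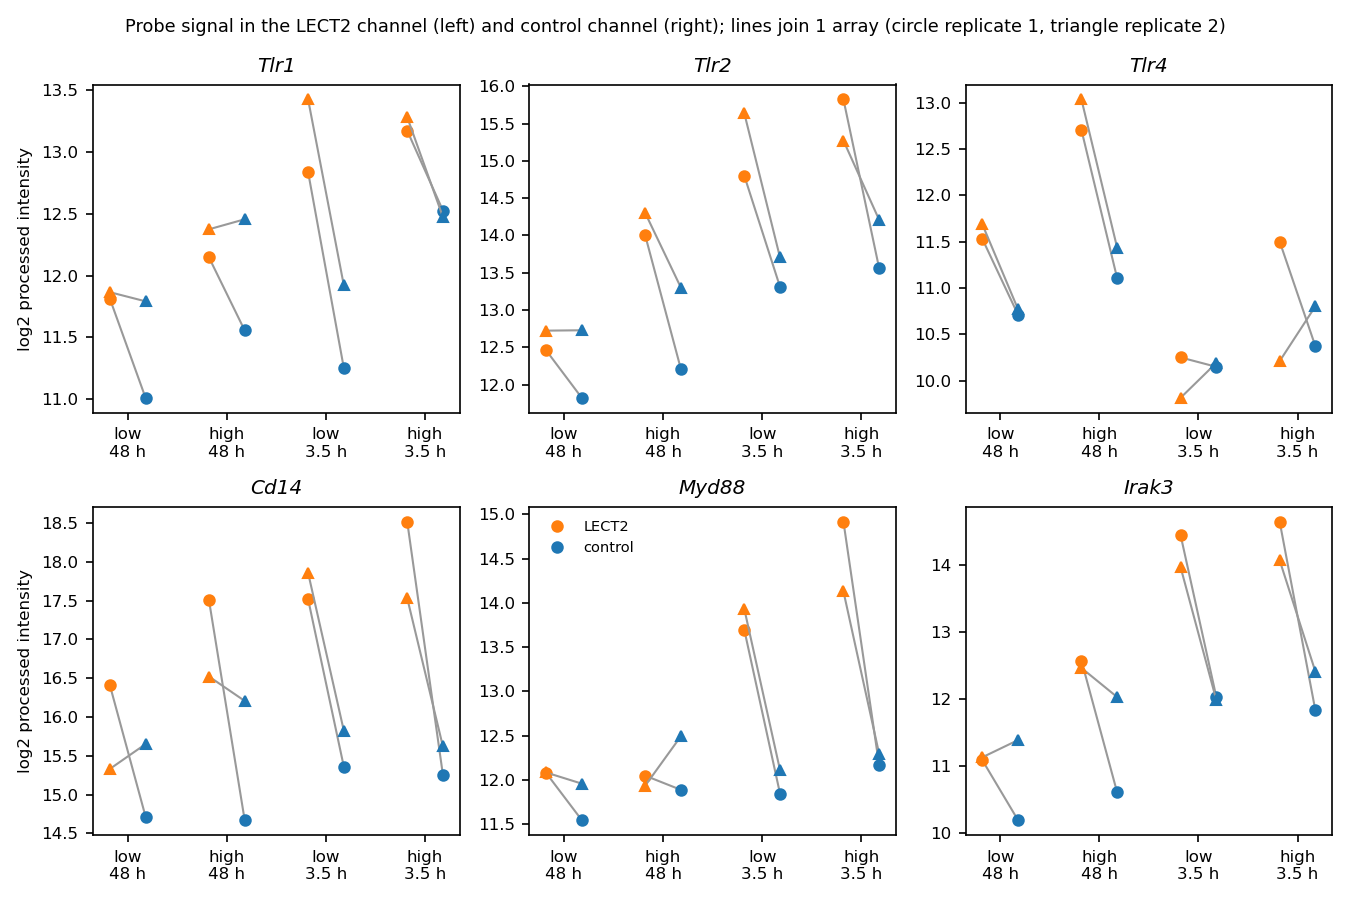
Log2 processed intensity of 6 members in the LECT2 channel (orange, left) and the control channel (blue, right) of each array, by dose and time group, from scanner files matched to the columns by their values. Lines join the channels of 1 array, circles are replicate 1 and triangles replicate 2; vertical scales differ between panels. Cd14 reaches 18.52 in the LECT2 channel of replicate 1 of the high dose at 3.5 h, against 15.25 in its control channel, and the LECT2 channel of Tlr4 reads 11.53 to 13.04 at 48 h against 9.82 to 11.50 at 3.5 h.

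Of the endosomal receptors none passed the test in any group. Tlr3 had log2 ratios of 0.40 and -0.01 at the low dose and 1.28 and 0.17 at the high dose at 48 h, against -0.04 and -0.16 at the low dose and 1.88 and 0.16 at the high dose at 3.5 h. At the high dose replicate 1 was high and replicate 2 near 0 at both times. The effect was 0.73 ± 0.42 (adjusted p = 0.298) for the high dose at 48 h and 1.02 ± 0.42 (adjusted p = 0.124) for the high dose at 3.5 h.

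Tlr9 had log2 ratios of -0.37 and 0.42 at the low dose and -0.29 and 0.22 at the high dose at 48 h, against -0.08 and 0.05 at the low dose and 0.19 and 0.12 at the high dose at 3.5 h. The 2 replicates at 48 h lie on opposite sides of 0 at both doses. Its 95% interval ran from -0.63 to 0.57 for the high dose at 48 h and from -0.44 to 0.75 for the high dose at 3.5 h.

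Tlr7 is measured by 2 probes that differ. The brighter, which was tested, had log2 ratios of -0.56 and 0.18 at the low dose and 0.46 and 0.99 at the high dose at 48 h, against -0.85 and -0.15 at the low dose and -0.06 and -0.80 at the high dose at 3.5 h. All 4 arrays at 3.5 h are below 0 and both high dose arrays at 48 h are above it, with an effect of 0.72 ± 0.31 (adjusted p = 0.173) for the high dose at 48 h. The other probe had group means of -0.03 and 0.07 with the low and the high dose at 48 h and 0.20 and -0.19 with the low and the high dose at 3.5 h, so its values stay closer to 0 and have the opposite sign at the low dose and 3.5 h.

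Myd88, the adaptor shared by the receptors other than TLR3, rose at both doses at 3.5 h. Its log2 ratio at 48 h was 0.54 and 0.13 at the low dose and 0.16 and -0.56 at the high dose. At 3.5 h it was 1.95 and 1.82 at the low dose and 2.74 and 1.84 at the high dose. The lowest of the 4 arrays at 3.5 h (1.82) lies above the highest of the 4 arrays at 48 h (0.54). The effect was 1.88 ± 0.29 at the low dose and 3.5 h (3.69-fold, adjusted p = 0.0160) and 2.29 ± 0.29 at the high dose and 3.5 h (4.88-fold, adjusted p = 0.00290). In processed intensity the LECT2 channel averaged 14.52 ± 0.56 and the control channel 12.23 ± 0.09 on the log2 scale (SD, n = 2) at the high dose and 3.5 h. Without replicate 1 of that group the effect was 1.83 (adjusted p = 0.0521), and at the low dose it was 1.82 (adjusted p = 0.128) without replicate 1. The 10 spots of its probe on 1 array had an SD of 0.0172 to 0.0662, against differences between the arrays of a group of 0.134 to 0.902.

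Irak3, the inhibitory IRAK of macrophages, also rose at both doses at 3.5 h. Its log2 ratio at 48 h was 0.89 and -0.26 at the low dose and 1.96 and 0.43 at the high dose. At 3.5 h the values were 2.48 and 1.94 at the low dose and 2.78 and 1.66 at the high dose. Replicate 1 of the high dose at 48 h (1.96) lies within the range of the 3.5 h arrays, and the other 48 h arrays lie below it. The effect was 2.21 ± 0.46 at the low dose and 3.5 h (4.62-fold, adjusted p = 0.0389) and 2.22 ± 0.46 at the high dose and 3.5 h (4.66-fold, adjusted p = 0.0142). At the high dose and 48 h it was 1.20 ± 0.46 (adjusted p = 0.130, and 0.0255 with a replicate block). The call at the high dose and 3.5 h was lost without replicate 1 of that group (1.66, adjusted p = 0.181). The call at the low dose was lost without replicate 1 (1.94, adjusted p = 0.255) or replicate 2 (2.48, adjusted p = 0.0760) of that group, without either high dose array at 3.5 h (adjusted p = 0.0581) and without either low dose array at 48 h (adjusted p = 0.0536).

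Between doses no member passed the test at either time, and 0% of all genes did. The count of members at an unadjusted p under 0.05 was also 0 at both times, beside 2738 genes at 48 h and 2048 at 3.5 h (limma). Without replicate 2 of the low dose at 3.5 h 436 genes passed at 3.5 h, 421 of them lower at the high dose, and with matched files and loess 8 passed at 3.5 h and 21 at 48 h, while the count of members was 0 under every alternative tried. The median dose difference, high minus low, over the members was 0.63 at 48 h and 0.22 at 3.5 h, beside -0.03 over all genes at both times. The intervals are wide. For Tlr2 at 48 h the effect was 1.39 at the high dose against 0.31 at the low dose, a difference of 1.08 with a 95% interval from -0.04 to 2.20. For Tlr1 at 3.5 h it was 0.71 at the high dose against 1.35 at the low dose, a difference of -0.63 with an interval from -1.52 to 0.25. For Tlr3 at 3.5 h the high dose gave 1.02 and the low dose -0.10, a difference of 1.12 with an interval from -0.28 to 2.51. For Cd14 at 3.5 h the interval ran from -1.52 to 2.78. These intervals include both no difference and differences of several fold, so equal action of the doses is not shown.

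Between times, 1 member passed the test. For Myd88 at the high dose the effect was -0.20 at 48 h against 2.29 at 3.5 h, a difference of -2.48 ± 0.42 (5.60-fold lower, adjusted p = 0.0208), where 3.78% of all genes were lower at 48 h and 4.52% higher. The call was lost without any 1 of the 4 arrays compared: the difference was -2.84 (adjusted p = 0.0810) without replicate 1 and -2.13 (adjusted p = 0.0942) without replicate 2 of the high dose at 48 h, and -2.03 (adjusted p = 0.0887) without replicate 1 and -2.94 (adjusted p = 0.0568) without replicate 2 of the high dose at 3.5 h. Over all genes 2170 differences were called, and 0 to 2 without any 1 of these 4 arrays. The difference of Myd88 has the opposite sign, 0.33, with the files as recorded. At the low dose no member passed, where 0.0994% of all genes did. An unadjusted p under 0.05 (limma) was reached by 2724 of the 26148 genes tested and by 4 members. Of these Irak3 had a difference of -1.89 (95% interval -3.39 to -0.39, adjusted p = 0.362) and Myd88 -1.55 (-2.52 to -0.59, adjusted p = 0.249). Tlr4 at the high dose had a difference in the other direction, 1.35 (0.12 to 2.58, adjusted p = 0.148), as did the tested probe of Tlr7, 1.16 (0.13 to 2.19, adjusted p = 0.141).

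In the control channel itself, Tlr2 averaged 12.51 on the log2 intensity scale at 48 h and 13.70 at 3.5 h (4 arrays each), Ly96 was at 12.86 against 13.95 and Irak3 at 11.06 against 12.07, and Tlr4 was higher, at 11.01 against 10.38. These levels are a description, since time and slide cannot be told apart.

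**Figure D3:**
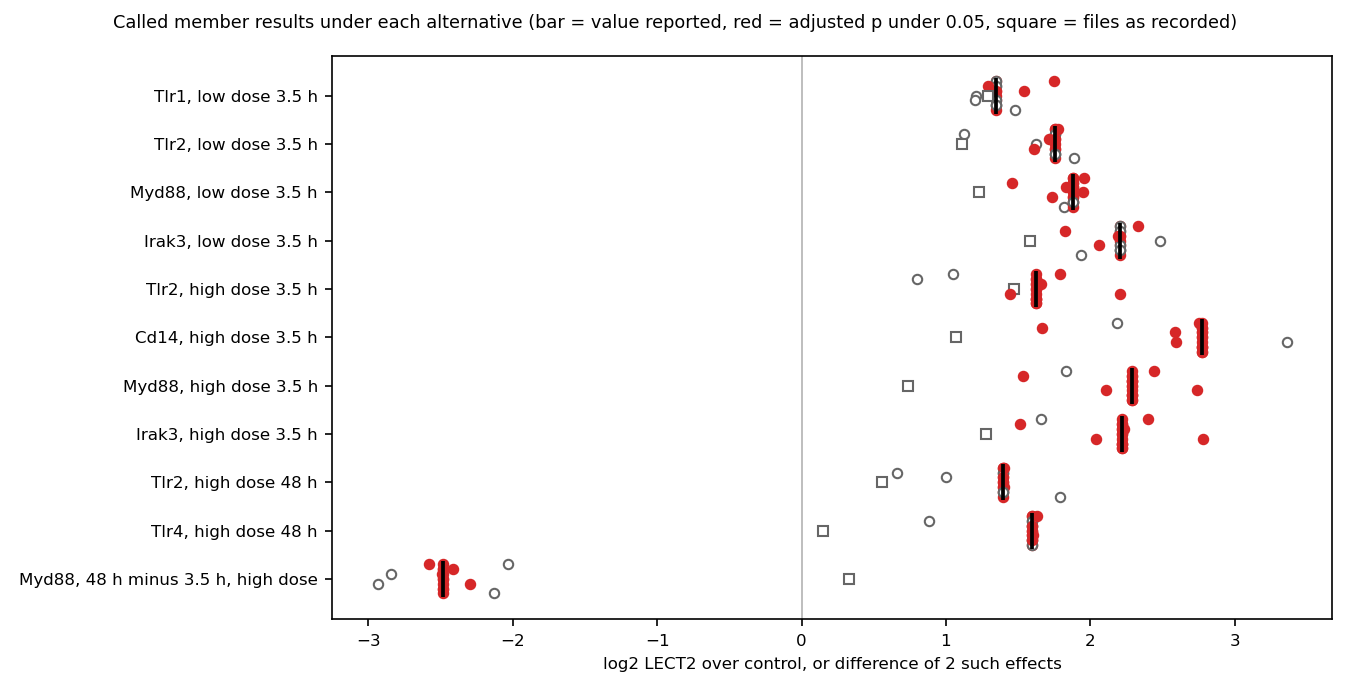
The 11 called results of members under each alternative way of processing, with the log2 value on the horizontal axis and 1 line per result. Black bars are the values reported, circles are alternatives, red marks an adjusted p under 0.05, and squares are the scanner files as recorded. All alternatives keep the sign of the 10 effects, and the square of the Myd88 time difference lies on the other side of 0 at 0.33.

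Across the 8 arrays Cd14 and Irak3 had the most alike pattern among pairs of members (Pearson r = 0.943, n = 8 arrays), followed by Tlr2 and Irak3 (0.915) and Tlr2 and Cd14 (0.841). Tlr4 and the tested probe of Tlr7 were alike at 0.757, and Tlr1 and Tlr4 ran opposite at -0.71. The other probe of Tlr7, which read between -0.34 and 0.30 on the 8 arrays, was not compared. The arrays share slides and processing, so these values describe the 8 arrays and carry no test. Of the 16753 other genes with a symbol, the nearest to Myd88 was Gsdma2 (0.990), to Tlr1 Lin7c (0.989), to Tlr4 Rmnd5a (0.987), to Irak3 Mgat4a (0.983), to Tlr2 Slc30a6 (0.982) and to Cd14 Pnp (0.976). The nearest to Tlr9 was Klhdc7b (0.988), to the tested probe of Tlr7 Twistnb (0.979), to Tlr3 Ccdc6 (0.972) and to Ly96 Olfr424 (0.942). Each is the highest r among all genes compared, and r takes no account of level. Lin7c ran from -1.12 to 0.47 where Tlr1 ran from -0.08 to 1.48. Rmnd5a ran from -1.89 to 0.51 where Tlr4 ran from -0.58 to 1.60.

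Lists of the remaining pathway genes were also chosen with earlier results of these data known. There were 6 lists with 56 genes, of which 54 were tested. At 48 h the low dose was followed by a change of 0 of them and the high dose by a rise of 7 (13.0%, beside 4.31% of all genes) and a fall of 3 (5.56%, beside 6.91%). At 3.5 h the low dose was followed by a rise of 8 (14.8%, beside 2.75%) and a fall of 1 (1.85%, beside 2.15%). The high dose at 3.5 h was followed by a rise of 14 (25.9%, beside 10.2%) and a fall of 5 (9.26%, beside 11.7%). The shares that fell are thus near or below those of all genes. Their median effect was 0.08 and -0.02 with the low and the high dose at 48 h and 0.32 and 0.28 with the low and the high dose at 3.5 h.

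Of the 5 other Toll-like receptors and relatives tested, 0 rose in any group. Among these Tlr5 was above background on 0 of the 8 arrays in the LECT2 channel and on 3 in the control channel. Tlr11 and Tlr12 were not tested. Tlr13, which binds bacterial ribosomal RNA in mice, fell at the high dose and 48 h (-1.30 ± 0.23, adjusted p = 0.0173), at the low dose and 3.5 h (-1.91 ± 0.23, adjusted p = 0.00774) and at the high dose and 3.5 h (-2.52 ± 0.23, adjusted p = 0.00109). Cd180, a TLR4-like surface protein, fell at the high dose and 3.5 h (-1.41 ± 0.31, adjusted p = 0.0186), and so did its partner Ly86, of the accessory list (-1.26 ± 0.29, adjusted p = 0.0201). Tlr6, the other partner of TLR2, and Tlr8 did not pass the test in any group, and the effect of Tlr6 at the low dose and 3.5 h was 1.37 (adjusted p = 0.0940). Of the 8 accessory and trafficking genes, Cd36, a lipid scavenger that assists TLR2, fell at the high dose and 48 h (-2.23 ± 0.54, adjusted p = 0.0394), as did Unc93b1, which escorts the endosomal receptors (-1.56 ± 0.30, adjusted p = 0.0211).

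Of the 5 other adaptors, Pik3ap1, which links the receptors to PI3K, rose at the high dose and 3.5 h (2.49 ± 0.35, adjusted p = 0.00394), while Tirap, Ticam1, Ticam2 and Sarm1 did not pass the test in any group. Of the 16 kinases and ubiquitin ligases, Ikbke, a kinase of interferon regulatory factors, rose at the low dose (1.66 ± 0.34, adjusted p = 0.0388) and the high dose (1.60 ± 0.34, adjusted p = 0.0165) at 3.5 h. Peli1, a ubiquitin ligase of IRAK proteins, rose at the high dose and 3.5 h (1.98 ± 0.29, adjusted p = 0.00449), where Tab1 and Irak1 fell (both -0.99, adjusted p = 0.0400 and 0.0392), with the other 2 probes of Irak1 at -0.371 and -0.621. Tbk1 (1.27, adjusted p = 0.0447) and Traf3 (0.90, adjusted p = 0.0373), of the interferon branch, rose at the high dose and 48 h. Irak2, Irak4 and Traf6, which act between MyD88 and NF-kB, did not pass the test in any group.

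Of the 8 transcription factors of the pathway 5 rose at the low dose and 3.5 h, among them the NF-kB subunits Nfkb2 (2.13 ± 0.20, adjusted p = 0.00363), Nfkb1 (1.88) and Relb (1.79), and Rel, whose control channel was not well above background on either array of that group. At the high dose and 3.5 h 6 rose, led by Nfkb2 (2.69 ± 0.20, adjusted p = 0.000616), Nfkb1 (2.17), Irf7 (2.10) and Rel (1.88). At the high dose and 48 h 3 rose: Irf7, which drives type I interferon genes (3.53 ± 0.53, adjusted p = 0.0109), Relb (1.06) and Nfkb2 (0.90). Irf7 was as high at the low dose and 48 h, where it did not pass the test (3.59 ± 0.53, adjusted p = 0.0665). The median effect of the list was 0.08 and 0.04 with the low and the high dose at 48 h and 1.64 and 1.87 with the low and the high dose at 3.5 h.

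Of the 12 other inhibitors, Tnfaip3, which removes ubiquitin from TRAF6, rose at the high dose and 48 h (1.24 ± 0.23, adjusted p = 0.0192), at the low dose and 3.5 h (1.82 ± 0.23, adjusted p = 0.00861) and at the high dose and 3.5 h (2.50 ± 0.23, adjusted p = 0.00109). Nlrc5 rose in the same 3 groups (1.78, 1.59 and 1.29), but its dimmer probe read between 0.279 and 0.524 in the 4 groups. Sigirr (1.56) and Tyro3 (1.10) rose at the high dose and 3.5 h, with the other probe of Tyro3 at 0.873 there. With the scanner files as recorded, 0 of 25721 genes were called at either dose at 3.5 h and 1 at the high dose and 48 h. No call on a pathway gene at 3.5 h was therefore kept with those files.

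The named calls on these pathway genes, 39 in the effects and time differences, also rested on few arrays, and 5 of them were kept whichever array was left out: Tlr13, Pik3ap1, Nfkb1, Nfkb2 and Tnfaip3, each at the high dose and 3.5 h. Without replicate 1 and without replicate 2 of the high dose at 48 h 17 were lost in each case, without replicate 1 of the high dose at 3.5 h 18 and without replicate 2 14, without either low dose array at 48 h 10, and without replicate 1 and replicate 2 of the low dose at 3.5 h 10 and 3.

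**Figure D4:**
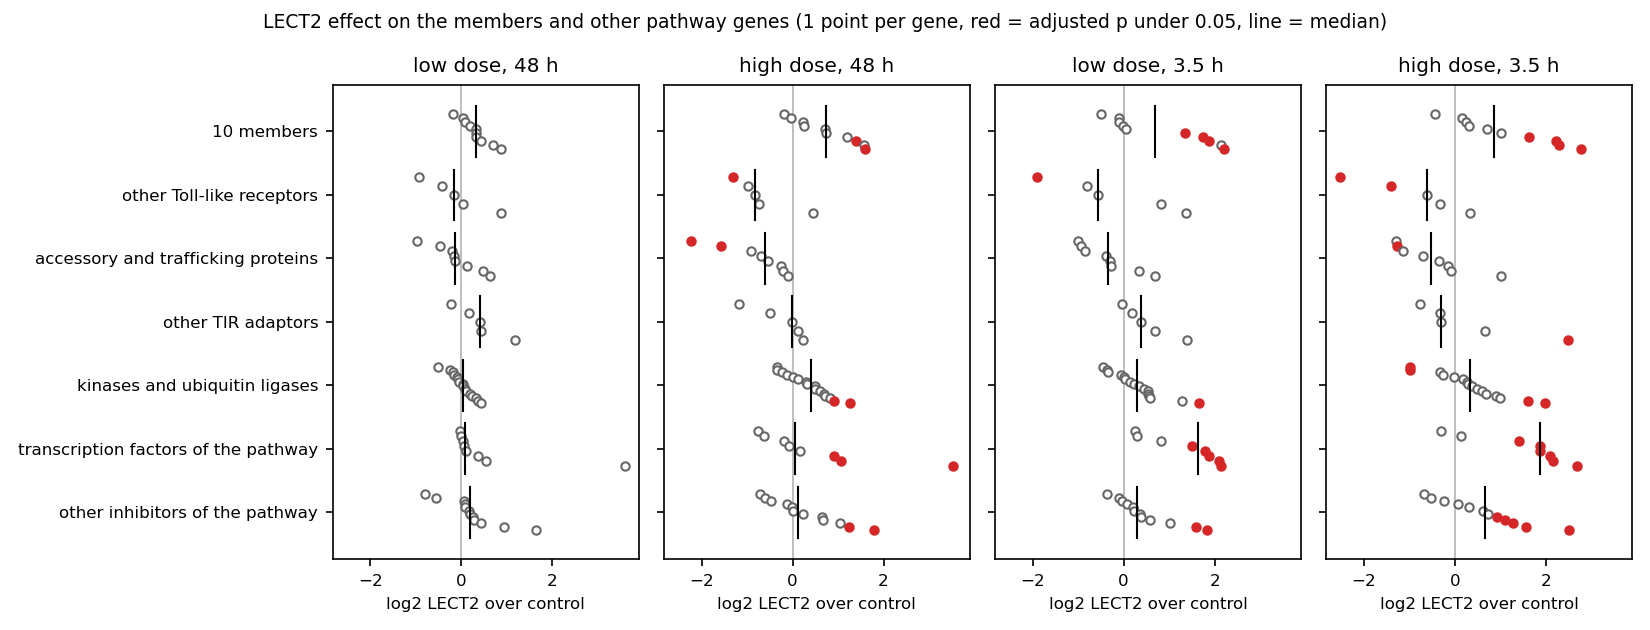
LECT2 effect of the 10 members and of 54 other pathway genes in the 4 groups, as the log2 ratio of LECT2 over control on the horizontal axis. Each point is 1 gene, red marks an adjusted p under 0.05, and the black line is the median of the list. At 3.5 h the members and the transcription factors have medians above 0 and the other Toll-like receptors medians below 0, at -0.57 and -0.62 for the low and high dose.

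Markers of other cell types moved with some of these groups, and levels are given here as the log2 of the summed signal of a list on each array. For 5 conventional dendritic cell markers it was 8.17 to 9.47 in the LECT2 channel and 8.38 to 9.03 in the control channel at 48 h, against 10.6 to 12.0 in the LECT2 channel and 8.41 to 9.56 in the control channel at 3.5 h. Zbtb46, a transcription factor of these cells, rose at 3.5 h with either dose (2.72 for the low and 3.31 for the high dose), and Xcr1 rose and Clec9a fell at the high dose and 3.5 h, with 0 called at 48 h. Xcr1, Clec9a and Dpp4 were above background in the LECT2 channel on 4, 2 and 2 of the 8 arrays. The summed signal with LECT2 is weighted to Zbtb46, with a mean log2 signal of 9.35 against 7.79 for Flt3, the next brightest. Flt3 (0.33 and 0.62) and Dpp4 (0.38 and -0.75) did not pass the test at the low and the high dose at 3.5 h. For 7 T and NK cell markers the sum was 11.7 to 12.3 with LECT2 and 10.6 to 11.5 in controls at 48 h. At 3.5 h it was 12.3 to 13.4 with LECT2 and 11.5 to 12.5 in controls. At 3.5 h 1 rose at the low dose (Cd247) and 2 at the high dose (Cd247 and Nkg7), where 2.75% and 10.2% of all genes rose. The others of the list read between -0.98 (Klrb1c) and 0.89 (Lck) at the high dose and 3.5 h, with Cd3g at 0.06. In the group where Tlr2 and Tlr4 rose, the high dose at 48 h, Cd3g of this list rose (1.30, adjusted p = 0.0216) and Klrb1c, above background with LECT2 on 3 of the 8 arrays, fell.

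For 5 neutrophil markers the sum was 10.6 to 12.6 with LECT2 and 9.60 to 10.8 in controls at 48 h, against 10.9 to 12.5 with LECT2 and 10.6 to 11.4 in controls at 3.5 h. S100a8 rose at the high dose and 48 h (2.99, adjusted p = 0.00571), where the other 4 read between -0.40 and 0.57 and the median of the list was -0.16. Camp rose at the high dose and 3.5 h (1.31), where 10.2% of all genes rose. S100a8 read 1.08 there and did not pass the test, and Elane, S100a9 and Mpo read 0.13, -0.70 and -1.01. For 7 mesothelial and fibroblast markers the sum was 14.0 to 15.0 with LECT2 and 14.5 to 16.0 in controls at 48 h, against 12.2 to 13.3 with LECT2 and 12.4 to 14.6 in controls at 3.5 h, and Wt1 and Pdgfra fell in each of the groups other than the low dose at 48 h. For 8 B cell markers the sums were 14.0 to 14.6 with LECT2 and 14.1 to 14.6 in controls at 48 h. At the high dose and 3.5 h they were 14.2 to 14.3 with LECT2 and 14.6 to 14.8 in controls. There 1 marker, Blk, rose (1.07), where 10.2% of all genes rose, and the others read between -0.70 (Cd79b) and 0.51 (Cd79a). Of the macrophage markers Timd4 rose and Gata6 fell at the low dose and 3.5 h, Lyz2 and Csf1r fell at the high dose and 3.5 h, and Gata6 fell at the high dose and 48 h. Of 5 mast cell markers 0 were called in any group. Of 5 plasmacytoid dendritic cell markers 1 rose at the low dose (Ccr9) and 2 at the high dose (Ccr9 and Klk1) at 3.5 h. Of all genes 2.75% and 10.2% rose there. The others did not pass: Siglech, the brightest, read -0.09 and -0.49 at the low and the high dose, Ly6d 0.80 and 0.92, and Spib 0.70 and -0.09. The part of these cells in the results on the receptors was not tested.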

How the data were processed

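The authors' deposited value table holds log2 ratios of Cy5 over Cy3, 1 column for each sample, and the deposited scanner files hold spot intensity per channel and a log10 ratio, read by Agilent Feature Extraction 10.7.3.1 per the file headers. How the table was made is not given in the sources used here. Its 48 h columns equal a scanner file's ratio within 0.01 for over 99% of 20622 probes, and the 3.5 h columns were treated in a way that is not known. Column medians, as LECT2 over control, lay between -0.08 and 0.22.

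An array carries 1377 control spots and 43020 spots of 39429 probes. RefSeq's gene table (GRCm38.p6) gave names only, for 26412 probes. A probe was kept if it stood above background in 1 or both channels on 2 or more arrays (31615 probes), and the brightest probe stood for a gene with several, leaving 26148 genes. The sign was reversed, and the limma package (3.58.1, R 4.3.3) fitted 1 mean per group with moderated variances on 4 residual degrees of freedom. The script was tested on simulated data with known changes.

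The members and all gene lists were chosen with earlier results of these data known. All members are named in every comparison; of each pathway list up to 4 called genes per comparison are named, by size of change, with others named after their values were seen. Replicates deviated together between groups at r = 0.04, 0.17, 0.20, 0.00, -0.06 and 0.47, the last between both doses at 48 h. The main fit did not take the replicate numbers as pairs, although each group holds an array from each experiment. These correlations do not show that the experiment had no effect. The block is therefore an alternative, and the calls it added are given below. The other alternatives were the background filter, the variance model, the mean of all probes, the arrays in the fit, each array left out, the scanner files (normexp with offset 50 and loess or median centring, the processed signals, or the files as recorded), column centring, and, chosen after seeing the data, only the arrays of the same time and slide.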

Additional observations from a re-analysis of the deposited data

Results flagged for a closer look

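Results are listed here because the effect at the high dose differed between times by the limma test of the difference itself. The difference, 48 h minus 3.5 h on the log2 scale, was -2.484 for Myd88, -3.674 for Pik3ap1, -2.351 for Nfkb1, -1.789 for Nfkb2, -1.707 for Rel and -1.488 for Rela. For Pik3ap1 the ratio on each array was -1.13 and -1.24 at 48 h against 3.28 and 1.70 at 3.5 h, so the 2 times lie on opposite sides of 0. For Nfkb1 it was 0.15 and -0.52 at 48 h against 2.28 and 2.05 at 3.5 h. The 2 times do not overlap for any of these 6 genes, which follows largely from how they were listed and adds no support. Time and slide cannot be told apart, and all 6 differences have the opposite sign with the scanner files as recorded.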

How the results depend on the processing

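Of the 11 calls on members, all 11 were kept with the replicate block, the strict filter, the trended robust variance, the mean of all probes, and the matched scanner files with loess or as processed signals. Column centring kept 10 and median centring 7, and the files as recorded kept 0. Several of the alternatives that kept all 11 could change little. The matched files were chosen for their likeness to the columns. Each called member has 1 probe, above background on every array, so the probe mean and the strict filter left its effect unchanged. At the low dose and 3.5 h, where 4 members were called, the count was 1 without the background filter, and 0 with only the arrays of the group compared, with only the arrays of the same time and slide, or with the files as recorded. The count for the high dose at 48 h, where 2 members were called, was 4 with the replicate block, 0 without the filter, 1 with only the arrays of the same time and slide and 0 with the files as recorded. With the files as recorded 0 were also called at the high dose and 3.5 h and between times at the high dose. With each array left out in turn the count of members called ran from 0 to 2 at the high dose and 48 h, from 0 to 4 at each dose at 3.5 h, and from 0 to 1 between times at the high dose, and 0 of the 11 calls were kept whichever array was left out. The replicate block added Cd14 at the low dose and 3.5 h and Cd14 and Irak3 at the high dose and 48 h, and changed no other call on a member.

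Median centring moved the median of all genes to between -0.25 and -0.12 in the 4 groups and the share of higher genes among calls to 21.7%, against 38.4% as reported, for the high dose at 48 h, to 23.6%, against 56.1%, for the low dose at 3.5 h and to 24.9%, against 46.5%, for the high dose at 3.5 h. Column centring moved it to 38.6% for the low dose and 30.6% for the high dose at 3.5 h. Under median centring Tlr9 at the high dose and 3.5 h was -0.58 (adjusted p = 0.0398, limma; 0.16 as reported), Tlr7 there was -1.16 (adjusted p = 0.00796), and at the high dose and 48 h Myd88 was -0.88 (adjusted p = 0.0293) and Tlr9 -0.73 (adjusted p = 0.0228). Tlr1 at the high dose and 3.5 h passed with matched files and loess (0.88, adjusted p = 0.0138). With the files as recorded the time difference at the high dose turned to 0.33 for Myd88, 0.81 for Pik3ap1, 0.26 for Nfkb1, 0.0032 for Nfkb2, 0.046 for Rel and 0.028 for Rela, and Unc93b1 at the high dose and 48 h to 0.28, and the highest effects on members were at the low dose and 48 h (Cd14 3.17, Irak3 2.49, Tlr2 2.16), none of them called. The cause was not tested. Slide as a block was not run, because the matched slides coincide with time and the recorded slides with the replicate number. Signal over background did not limit the members, all of which were above background in both channels on every array.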
